A study of Mus musculus with 10 samples.

Results

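The hair shaft keratins are the structural proteins of the hair fibre, and 10 of their genes were followed here in whole mouse skin: the type I genes Krt31, Krt32, Krt33a, Krt33b, Krt34, Krt35 and Krt36 and the type II genes Krt81, Krt83 and Krt86. They were taken by name, from a list of keratins of the hair cortex and cuticle drawn up with earlier results of these data known. All 10 were found among the 49671 gene identifiers in the count files, and all 10 were among the 18060 genes that had enough reads to be tested. Poly(A) RNA had been sequenced from 5 mice homozygous for the altered Npy allele of the strain B6;129S4-Npytm2Rpa/J, called NPYtet here, and from 5 wildtype siblings, called WT, with 1 library a mouse. Npy encodes neuropeptide Y, a signalling peptide of neurons, and the series title names its overexpression in skin. All mice were 22 weeks old and shared the mixed B6;129S4 background. By label, WT replicates 1 and 3 were female and WT replicates 2, 4 and 5 male, while NPYtet replicates 1, 3 and 4 were female and NPYtet replicates 2 and 5 male. The labels name no agent given to either group, and no cell type or promoter to which the altered allele is limited.

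Hair keratins are intermediate filament proteins. An acidic type I chain pairs with a basic type II chain, and the pairs assemble into the filaments that keratin-associated proteins then crosslink into a hard fibre. The genes are transcribed in the matrix, cortex and cuticle of follicles in the growing phase of the hair cycle, and resting follicles make little of them. Krt35 is switched on early, at the base of the forming cortex and cuticle, Krt32 is a keratin of the cuticle, and Krt31, Krt33a, Krt33b, Krt34, Krt81, Krt83 and Krt86 are keratins of the cortex.

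The 7 type I genes lie side by side between bases 100011195 and 100105626 of chromosome 11 (GENCODE M21 on GRCm38, the assembly also called mm10), all on the minus strand. The 3 type II genes lie between bases 101459061 and 101491512 of chromosome 15, with Krt86 on the plus strand and the other two on the minus strand. RefSeq's table of start sites (GRCm38.p6) held 5 of the 10, namely Krt31, Krt32, Krt33b, Krt34 and Krt36, and the 250 bases before each start were searched on both strands for 6 motifs. The sequences of 4 are given because they belong to genes that behaved in different ways below: Krt31 (chr11:100050552-100050801) and Krt34 (chr11:100041555-100041804) are cortex genes with a wide range between libraries, and Krt32 (chr11:100088270-100088519) and Krt36 (chr11:100105627-100105876) were at 2.65 CPM or more and 0.983 CPM or more in every library. All are read 5′ to 3′ on the gene's own strand, the minus strand, and capitals mark 4 of the motifs, which are taken up one by one after the sequences.
Krt31: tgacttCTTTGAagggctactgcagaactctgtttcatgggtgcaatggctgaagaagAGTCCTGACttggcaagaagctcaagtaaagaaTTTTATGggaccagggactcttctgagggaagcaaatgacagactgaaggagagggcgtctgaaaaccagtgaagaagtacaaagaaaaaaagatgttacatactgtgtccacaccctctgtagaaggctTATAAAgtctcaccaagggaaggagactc
Krt34: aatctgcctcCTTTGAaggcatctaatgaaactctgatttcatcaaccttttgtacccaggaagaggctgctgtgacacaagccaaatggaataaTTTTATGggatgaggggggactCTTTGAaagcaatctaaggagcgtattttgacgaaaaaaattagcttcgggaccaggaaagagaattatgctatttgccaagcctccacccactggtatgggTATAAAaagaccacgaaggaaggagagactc
Krt32: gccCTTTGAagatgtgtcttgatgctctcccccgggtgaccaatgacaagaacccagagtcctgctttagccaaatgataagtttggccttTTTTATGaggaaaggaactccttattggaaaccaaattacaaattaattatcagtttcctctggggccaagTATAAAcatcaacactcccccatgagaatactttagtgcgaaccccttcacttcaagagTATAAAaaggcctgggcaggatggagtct
Krt36: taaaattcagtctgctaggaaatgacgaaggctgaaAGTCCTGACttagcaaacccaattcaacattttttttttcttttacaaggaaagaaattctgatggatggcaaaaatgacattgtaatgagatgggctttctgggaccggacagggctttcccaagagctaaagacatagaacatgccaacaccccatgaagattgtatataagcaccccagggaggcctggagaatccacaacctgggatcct

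TATAAA, the core of a TATA box, was present in 4 of these 5 windows, against 12.4% of the 32851 windows of the same length in the table. Krt36 lacked this exact string, but its window holds the similar string tatataag, which was not searched for. In Krt31, Krt32 and Krt34 a copy began 29 to 31 bases before the start site, and in Krt33b the copy began 47 bases before it. CTTTGA, a core of the sites that LEF1 and other TCF factors recognise, was present in the same 4 windows, against 13.8% of all windows, and its farthest copy began between 240 and 247 bases before the start. The string CAATAAA was in none of the 5 windows and in 4.2% of all windows. Another string searched, CTCGTAAA, was also in none of the 5, and in 0.11% of all windows. A pair of further strings was picked only after the windows had been read. The first, TTTTATG, stood 155 to 160 bases before the start of the same 4 genes (3.77% of all windows). The second, AGTCCTGAC, stood in Krt31, Krt33b and Krt36 (0.219% of all windows). Of the strings searched, Krt36 held only AGTCCTGAC, 214 bases before its start. These are matches of letters, and no binding was measured.

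The coding sequences fall into tight subgroups, which matters for the counts. Krt31, Krt33a, Krt33b and Krt34 were 93.0% to 94.1% identical to each other over their aligned coding bases, and Krt81, Krt83 and Krt86 were 93.1% to 94.2% identical. Krt32, Krt35 and Krt36 differed more from the other type I genes, and between the types identity was 61.1% to 68.8%. Of all stretches of 75 bases in a transcript, the read length of the study, 35.5% of those of Krt81 and 33.5% of those of Krt86 also occurred in another gene, as did 24.7% for Krt34, 19.1% for Krt31, 14.4% for Krt33a, 12.5% for Krt83 and 11% for Krt33b. Reads from such stretches may have been dropped or assigned to the wrong copy, so the division of reads within each subgroup is uncertain. The share was 1.76% for Krt35 and 0 for Krt32 and Krt36, whose counts are free of this limit.

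Total counts ranged from 23209405 to 53357695 reads a library. Npy was counted at 0.0939 to 2.85 CPM (CPM is a gene's reads brought to a common library size, here with TMM factors) in WT and at 96.1 to 485 CPM in NPYtet, so the genotype labels held in all 10 libraries, and the other marker lists for whole skin (fibroblast, adipocyte, muscle, sebaceous, epidermal, melanocyte and leukocyte genes) had reads in each of their genes. NPYtet replicate 1 is labelled female but had 2 Xist reads and 1513 reads of the Y-linked gene Ddx3y, against 332 to 461 CPM of Xist in the other libraries labelled female. NPYtet replicate 5 had 9.26% mitochondrial reads and 4.70% of reads at the ribosomal RNA locus, and WT replicate 2 had 1.82% at that locus, against at most 3.03% and 0.443% in the other 8. These 3 libraries stand apart, and values without them are given with the results.

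The summed level of the 10 hair keratins differed 309-fold between the highest and lowest WT libraries and 1158-fold between the highest and lowest NPYtet libraries. It was 4756, 8398, 27.2, 3967 and 1491 CPM in WT replicates 1 to 5 and 5.70, 416, 24.2, 11.7 and 6599 CPM in NPYtet replicates 1 to 5. Thus 4 of 5 WT libraries and 2 of 5 NPYtet libraries had a sum of 416 CPM or more, and the other 4 libraries had 27.2 CPM or less, with no library between. WT replicate 3 lay with the low NPYtet libraries, and NPYtet replicate 5 lay, after TMM scaling, above all WT libraries except replicate 2. That rank depends on the scaling. The TMM factors were 0.652 in NPYtet replicate 5 and 0.696 in WT replicate 2, against 1.17 and 1.13 in WT replicates 1 and 4. As a share of all reads the 10 genes made up 0.430% in NPYtet replicate 5. They made up 0.557%, 0.584% and 0.450% in WT replicates 1, 2 and 4. The reads behind these sums numbered 158938 to 239877 in WT replicates 1, 2 and 4 and 232 to 1157 in the 4 low libraries, so the low sums rest on at least 232 reads. In whole skin, fewer hair-forming cells and less keratin RNA in each cell cannot be told apart.

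**Figure D1:**
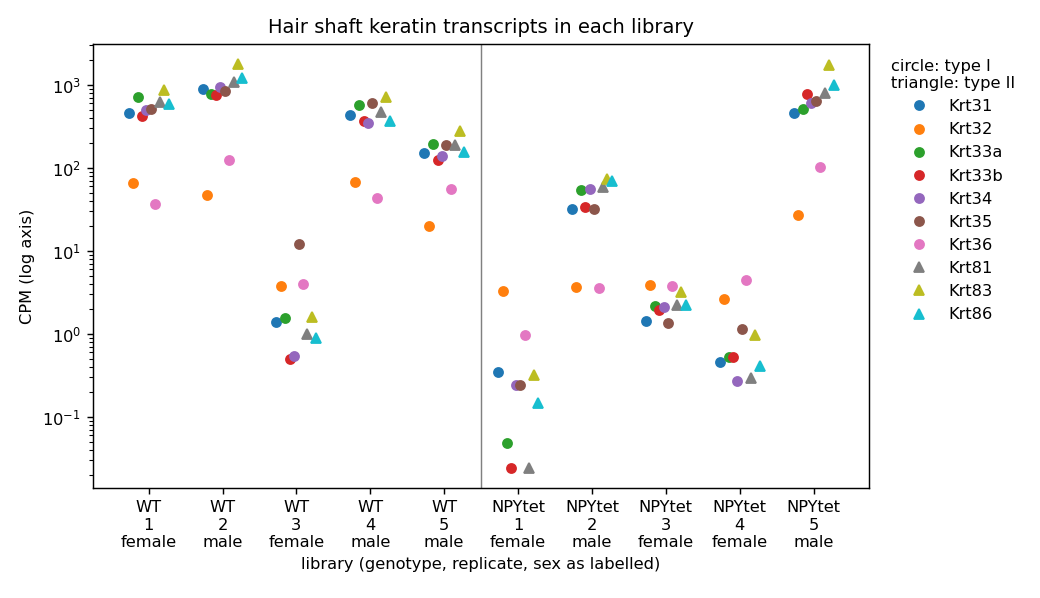
Level of each hair shaft keratin in each of the 10 libraries, in CPM on a log axis; circles are type I genes, triangles are type II genes, and the sex is as labelled. WT replicate 3 (sum 27.2 CPM) sits with the low NPYtet libraries, NPYtet replicate 5 (sum 6599 CPM) sits with the high WT libraries, and Krt32 and Krt36 stand lowest where the others are high and among the highest where the others are low.

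Among the type I genes of the cortex, Krt31 was measured at 458, 889, 1.39, 437 and 150 CPM in WT replicates 1 to 5 and at 0.344, 31.5, 1.43, 0.457 and 451 CPM in NPYtet replicates 1 to 5. WT averaged 387 ± 341 CPM and NPYtet 96.9 ± 198 CPM (SD over 5 libraries each), and the fitted log2 fold change, NPYtet minus WT with labelled sex in the model, was -4.57 (SE 2.58, edgeR unadjusted p = 0.117). The groups overlapped from both sides. WT replicate 3 was as low as NPYtet replicate 3, and NPYtet replicate 5 was after TMM scaling as high as WT replicate 1. Per total reads NPYtet replicate 5 was lower than WT replicate 1. Krt34 was measured at 491, 926, 0.540, 344 and 138 CPM in WT and at 0.246, 55.1, 2.10, 0.274 and 597 CPM in NPYtet, a log2 fold change of -4.26 (SE 2.89). WT replicate 3 was again among the low libraries, and NPYtet replicate 5 was after TMM scaling second only to WT replicate 2. Per total reads NPYtet replicate 5 was also below WT replicates 1 and 4.

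Krt33a and Krt33b are neighbouring genes, and both were lowest in NPYtet replicate 1, with 2 reads and 1 read, under the 3 reads taken as the floor of detection. Krt33a was at 719, 781, 1.55, 563 and 192 CPM in WT and at 0.0491, 54.7, 2.14, 0.526 and 507 CPM in NPYtet, with means of 451 ± 340 and 113 ± 221 CPM (SD, n = 5 each) and a log2 fold change of -4.68 (SE 2.89). Krt33b was at 415, 748, 0.493, 367 and 124 CPM in WT and at 0.0246, 34.1, 1.93, 0.526 and 773 CPM in NPYtet, with means of 331 ± 289 and 162 ± 342 CPM and a log2 fold change of -3.92 (SE 3.15). For Krt33b, unlike Krt33a, the highest value of all 10 libraries after TMM scaling was that of NPYtet replicate 5. Per total reads WT replicate 2 was the higher, with 14149 of 27207273 reads against 11692 of 23209405 in NPYtet replicate 5.

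Krt35, the early keratin, was at 510, 846, 12.0, 596 and 187 CPM in WT and at 0.246, 32.1, 1.36, 1.14 and 634 CPM in NPYtet. WT averaged 430 ± 332 CPM and NPYtet 134 ± 280 CPM (SD over 5 libraries each), with a log2 fold change of -4.36 (SE 2.5, edgeR unadjusted p = 0.121). The 12.0 CPM in WT replicate 3 is above all 3 NPYtet libraries labelled female, which was not so for Krt31, Krt33b or Krt34. Krt35 had 512 reads there, against 59 reads of Krt31. Per kilobase of exon, Krt35 was at 5.73 times the level of Krt31 in that library and at 0.628 to 0.928 times in the 6 libraries rich in hair keratins. As a share of the reads of these genes together, Krt35 made up 89.7% in WT replicate 3 (exact 95% interval 86.9% to 92.0%, counting error only), 41.7% in NPYtet replicate 1 (22.1% to 63.4%), 48.8% in NPYtet replicate 3 (39.6% to 58.0%) and 71.4% in NPYtet replicate 4 (59.4% to 81.6%). WT replicate 3 therefore had more Krt35 relative to Krt31 than any of the other 9 libraries, a comparison chosen after the values were seen and not tested between genotypes.

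Krt32, the cuticle keratin, had a narrower range than any other of the 10 genes. It was at 65.8, 47.1, 3.73, 67.5 and 20.1 CPM in WT and at 3.32, 3.72, 3.85, 2.65 and 27.0 CPM in NPYtet, with means of 40.8 ± 28.2 and 8.11 ± 10.6 CPM (SD, n = 5 each). Its log2 fold change of -2.48 (SE 0.79) had the smallest p of the 10 (edgeR unadjusted p = 0.00931, adjusted p = 0.999). All 5 WT values were above the NPYtet median of 3.72 CPM, but WT replicate 3 lay at 3.73 CPM. After TMM scaling NPYtet replicate 5 was above WT replicates 3 and 5, and per total reads it was above WT replicate 3 only. Even in NPYtet replicate 1, where Krt33b and Krt81 had 1 read each, Krt32 had 135 reads. Krt36 was at 36.7, 125, 3.94, 43.6 and 54.9 CPM in WT and at 0.983, 3.56, 3.80, 4.46 and 104 CPM in NPYtet, with a log2 fold change of -1.59 (SE 1.0, edgeR unadjusted p = 0.148). It shares with Krt32 a level per kilobase of exon below the other 8 genes in each rich library and a level above most of them in the poor ones.

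The type II genes of the cortex, which supply the partner chains, repeated the pattern of the type I cortex genes. Krt81 was at 624, 1072, 0.986, 470 and 191 CPM in WT and at 0.0246, 58.9, 2.26, 0.297 and 786 CPM in NPYtet, and 1 read stood behind the value of NPYtet replicate 1. Krt83 was at 855, 1767, 1.62, 714 and 279 CPM in WT and at 0.319, 73.0, 3.15, 0.983 and 1719 CPM in NPYtet. It had the highest mean of the 10 in both genotypes, 723 ± 676 and 359 ± 761 CPM (SD, n = 5 each). Krt86 was at 582, 1197, 0.892, 364 and 155 CPM in WT and at 0.147, 69.5, 2.21, 0.412 and 1003 CPM in NPYtet. Their log2 fold changes were -4.40 (SE 3.15), -4.06 (SE 3.15) and -4.13 (SE 3.19) for Krt81, Krt83 and Krt86. In all 3 genes NPYtet replicate 5 was after TMM scaling second only to WT replicate 2, and WT replicate 3 was below NPYtet replicate 3. Per total reads the second rank of NPYtet replicate 5 held for Krt83 only.

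The comparison of genotypes asks whether hair keratin transcripts differ between NPYtet and WT skin. None of the 10 genes passed edgeR's quasi-likelihood test at an adjusted p of 0.05 (0.999 for all 10), where 0.00554% of all genes tested passed, that is 1 gene, Npy, with a log2 fold change of 7.45 (SE 0.62, adjusted p = 0.000109). Krt32 alone had an unadjusted p below 0.05, so 1 of 10 against 3.59% of all genes. DESeq2 and limma voom also called none of the 10, while calling 0.194% and 0.0111% of all genes, with 9 and 4 of them at an unadjusted p below 0.05 against 5.39% and 4.58% of all genes. With no filter on low counts edgeR called all 10 lower in NPYtet, among 409 genes or 1.24% of the 32857 tested. The fold changes hardly moved there, but the standard errors fell to between 0.36 and 0.62. Krt31, for one, was at -4.58 (SE 0.54) without the filter and at -4.57 (SE 2.58) with it. Those calls thus rest on a smaller estimate of the spread. With the filter kept, the fitted changes of all 10 in edgeR were below 0, against 51.2% of all genes, and 8 of 10 were at -3.5 or lower, against 0.465%. Their median was -4.19 and that of all genes -0.01, while their standard errors ran from 0.79 to 3.19. The median of the 10 was -4.27 in DESeq2 and -1.85 in limma voom, which gave each library a quality weight. No member's groups were free of overlap, against 0.305% of all genes without overlap.

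The fitted changes depended on which libraries entered. Without WT replicate 1, the one WT library labelled female that was rich in hair keratins, the median of the 10 changes was -0.40, and Krt33b turned to 0.22 (SE 0.95), with 0 of 10 called by edgeR (0.00546% of all genes). Krt35 alone was then at an unadjusted p below 0.05 (-1.95, SE 0.80), where 1.2% of all genes were below it. Without NPYtet replicate 5, the one rich NPYtet library of that size, the median was -6.03 and all 10 had an unadjusted p below 0.05, against 3.85% of all genes, still with 0 called by edgeR (0.00543% of all genes). Without the 3 libraries that stand apart the median was -5.31, with 3 of 10 at an unadjusted p below 0.05 against 4.35%, and edgeR called none of the 10 and 0% of all genes, Npy included. Without the sex term the median was -1.51, with 1 of 10 at an unadjusted p below 0.05 against 2.96%.

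**Figure D2:**
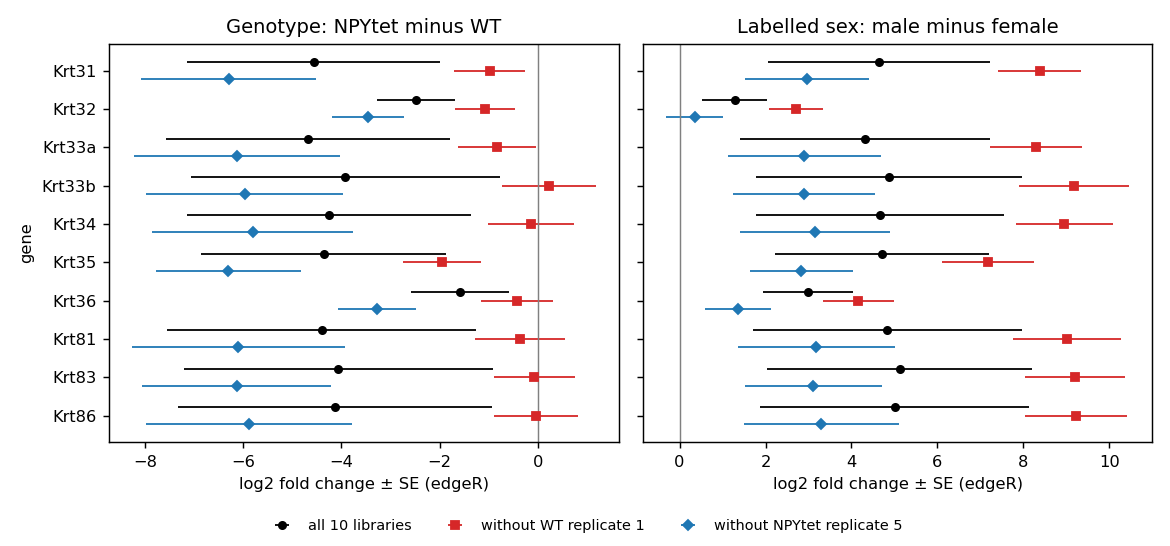
Fitted log2 fold change ± SE of each gene in edgeR, for genotype (left, NPYtet minus WT) and labelled sex (right, male minus female), with all 10 libraries, without WT replicate 1 and without NPYtet replicate 5. The median genotype change moves from -4.19 to -0.40 and -6.03, and the median sex change from 4.69 to 8.66 and 2.93.

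Labelled sex divided the libraries more nearly than genotype did. The summed level was 416 CPM or more in all 5 libraries labelled male and in WT replicate 1, while the other 4 libraries labelled female had 27.2 CPM or less. For 8 of the 10 genes each library labelled male was above each of those 4, the exceptions being Krt32 (lowest male 3.72 CPM, highest of the 4 3.85 CPM) and Krt36 (3.56 and 4.46 CPM). Male minus female, the log2 changes of all 10 were above 0 (46.2% of all genes), with a median of 4.69 against -0.07 for all genes, and 0 of 10 passed edgeR's test, where 2.48% of all genes passed. Adjusted p values ran from 0.135 to 0.384, and Krt36 had the smallest (2.98, SE 1.05, edgeR unadjusted p = 0.0201, 1 of 10 against 24.6% of all genes). DESeq2 called 8 (12.8% of all genes), limma voom 9 (32.6%), and edgeR 10 when low counts were kept (7.24%) or without WT replicate 1 (3.65%). NPYtet replicate 1, which is labelled female and carries Y-linked reads, had the lowest level of 9 of the 10 genes. The division by sex therefore holds for the labels only, and no fit took sex from the sex-linked reads. Without NPYtet replicate 1 the median sex change was 3.36 and the median genotype change -2.68. On total counts alone the median sex change of all genes shifted to -0.46 and that of the 10 keratins to 4.05.

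The model with both factors and their product asks whether the genotype difference itself differs between labelled sexes. Among libraries labelled female, NPYtet replicate 1 with its Y-linked reads among them, the summed level was 27.2 and 4756 CPM in the 2 WT libraries and 5.70 to 24.2 CPM in the 3 NPYtet libraries, the 5.70 being that of NPYtet replicate 1. Among those labelled male it was 1491 to 8398 CPM in the 3 WT libraries and 416 and 6599 CPM in the 2 NPYtet libraries. The fitted genotype change had a median of -8.16 in libraries labelled female, with 9 of 10 at an unadjusted p below 0.05 against 2.48% of all genes, and of -0.50 in those labelled male, with 0 of 10 against 4.01%. In edgeR 0 of the 10 passed for the difference between these, as did 0% of all genes, with 8 of 10 at an unadjusted p below 0.05 against 1.63%. DESeq2 and limma voom also called none of the 10 (0.0166% and 0% of all genes), with 8 and 1 at an unadjusted p below 0.05 against 2.32% and 1.32%. Without NPYtet replicate 1 the number at an unadjusted p below 0.05 was 1 of 10 (0.69% of all genes), and it was also 1 of 10 without NPYtet replicate 4 (0.75%), NPYtet replicate 5 (1.71%), WT replicate 4 (7.07%) or WT replicate 5 (0.782%). It was 0 of 10 without WT replicate 1 (0.535%) and without the 3 libraries that stand apart (2.54%), where the median difference was 4.85. With no filter on low counts edgeR called 8 of 10, among 0.66% of all genes. The contrast in libraries labelled female rests on 2 WT libraries of very different level: without WT replicate 1 the median difference between the sexes was -0.14, and without WT replicate 3 it was 8.68, with 6 of 10 called against 0.59% of all genes.

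The makeup of the keratins differed between rich libraries, those with a summed level of 416 CPM or more, and poor ones, those with 27.2 CPM or less, and varied within both. Compared per kilobase of exon, the order of mean level in WT was Krt83 at 393 ± 367, Krt31 at 245 ± 216, Krt34 at 236 ± 223, Krt86 at 234 ± 238, Krt81 at 223 ± 195, Krt33a at 219 ± 165, Krt33b at 209 ± 183, Krt35 at 180 ± 139, Krt36 at 31.6 ± 26.6 and Krt32 at 23.7 ± 16.4 CPM per kb (SD, n = 5). Neighbours in that order had means within 1 SD of each other, except Krt35 and Krt36, whose means differed by slightly more than the SD of Krt35. These SDs are the spread over libraries, which the genes share, and do not measure how firm the order is within a library. Krt83 had rank 1 in each of the 6 rich libraries and rank 3 or 4 in the poor ones. Krt83 was also first in NPYtet, with Krt36 and Krt32 last. In the 6 rich libraries Krt83 made up 17.8% to 26.3% of the summed CPM per kb, Krt36 0.866% to 4.13% and Krt32 0.443% to 1.86%. In the 4 poor libraries Krt36 made up 16.9% to 40.3% and Krt32 15.9% to 58.6%. By reads, Krt32 held 58.2% of the 232 reads of the family in NPYtet replicate 1 (exact 95% interval 51.6% to 64.6%), and Krt36 held 38.0% of the 513 reads in NPYtet replicate 4 (33.8% to 42.4%). In WT replicate 3 Krt35 held 44.3% of 1157 reads (41.4% to 47.2%). No genotype test was made of these shares, since they follow the summed level and the poor libraries are 1 WT and 3 NPYtet.

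**Figure D3:**
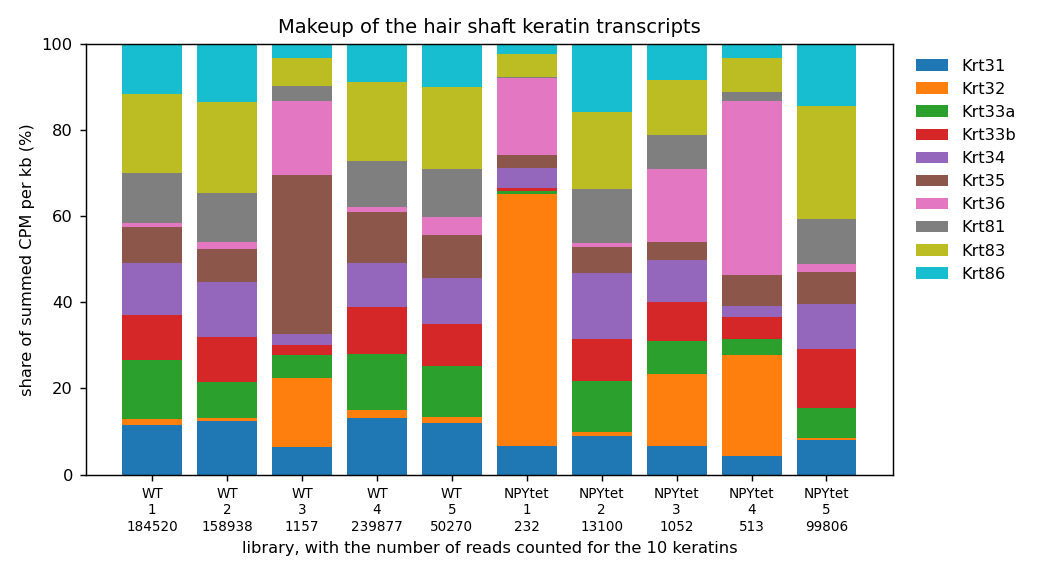
Share of each gene in the summed CPM per kb of the 10 hair shaft keratins, by library, with the number of reads counted for them under each bar. In the 4 libraries with 1157 reads or fewer, Krt32 and Krt36 each take at least 15.9%, and in the other 6 they take at most 4.13%.

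Type I and type II keratins pair chain for chain in the filament, and the transcript ratio of the 7 and 3 genes here followed the same division. Other hair keratins of both types, among them Krt39, Krt40, Krt82, Krt84 and Krt87, are not in it. In NPYtet replicate 1 Krt81, Krt83 and Krt86 were at 0.0246, 0.319 and 0.147 CPM, and Krt84 was at 1.46 CPM or more in every NPYtet library. These values are not per kilobase, and Krt84 has 2640 exon bases against 1842 to 2119 in the 3 genes. The ratio is thus not that of all hair keratins, least of all in the poor libraries. The summed CPM per kb of the 7 type I genes over that of the 3 type II genes was 1.40, 1.18, 6.57, 1.65 and 1.48 in WT replicates 1 to 5 and 11.6, 1.17, 2.44, 6.49 and 0.955 in NPYtet replicates 1 to 5. The ratio lay between 0.955 and 1.65 in the 6 rich libraries and between 2.44 and 11.6 in the 4 poor ones. Without Krt32 and Krt36 it was 1.34, 1.13, 4.05, 1.57 and 1.34 in WT and 1.97, 1.12, 1.29, 1.73 and 0.912 in NPYtet, so those genes made up most of the excess except in WT replicate 3, where Krt35 remained.

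Across the 10 libraries the 10 genes went up and down together. Pearson's r of log2 CPM ranged from 0.879 to 0.998 over the 45 pairs (median 0.976), from 0.951 to 0.998 over the 28 pairs without Krt32 and Krt36, and from 0.879 to 0.924 over the pairs of those genes. The libraries share depth and scaling, and similar copies share reads, so these values only describe the co-variation. Outside the 10, the genes most like their mean profile were Krtap11-1 (r = 0.998), the type II hair keratin Krt87 (0.997), Krtap13-1 (0.996), Gprc5d (0.996), Krtap26-1 (0.996), Krtap1-4 (0.994), Padi1 (0.994), Krtap16-1 (0.993), Krtap1-3 (0.992) and Crym (0.990). Of these 10, 6 encode keratin-associated proteins, Padi1 is an enzyme that converts arginine to citrulline in proteins, and Crym is a thyroid hormone binding protein. Of 15180 genes with a mean of at least 1 CPM, 1.26% reached an r of 0.9, and the median r was -0.08. The spread of log2 CPM within genotypes placed Krt32 at the 95.5th percentile and Krt36 at the 98.5th percentile of all genes tested, and the other 8 at the 99.5th or above.

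Other hair keratins varied alike. Of the 6 listed, 5 matched the annotation and were tested, and the other was not analysed here. Krt82, a type II cuticle keratin, was at 0.634 to 83.0 CPM in WT and 0.123 to 23.5 CPM in NPYtet, with a log2 fold change of -4.37 (SE 1.81, edgeR unadjusted p = 0.0442). Krt87 was at -4.09 (SE 2.73), Krt40 at -4.08 (SE 1.79), Krt39 at -1.99 (SE 1.91) and Krt84 at -1.85 (SE 1.24). In edgeR 0 of 5 were called (0.00554% of all genes), with 1 at an unadjusted p below 0.05 (3.59% of all genes). Their median of -4.08 lay near the -4.19 of the 10.

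The rest of the hair-forming programme was set beside the keratins by lists, in none of which edgeR called a gene by genotype. Over all genes tested edgeR called 0.00554%, 51.2% had a change below 0 and 3.59% an unadjusted p below 0.05. These shares stand beside the genotype counts of each list here and below. Of 54 keratin-associated protein genes tested, whose products crosslink the keratin filaments, 53 had a change below 0 (median -3.44), with 1 at an unadjusted p below 0.05. The 9 inner root sheath genes, which form the sleeve that moulds the growing shaft, were all below 0 (median -4.74), with 2 at an unadjusted p below 0.05, Krt74 at -4.08 (SE 1.06, edgeR unadjusted p = 0.00259) and Krt28 at -4.14 (SE 1.49, edgeR unadjusted p = 0.0237). Among 12 genes of shaft hardening and cell junctions 11 were below 0 (median -0.76) and none had an unadjusted p below 0.05. Padi3, another citrullinating enzyme, was at 5.78 to 850 CPM in WT and 0.393 to 438 CPM in NPYtet.

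Upstream of the keratins, 14 of 14 hair matrix transcription factors had a change below 0, with a median of -1.06. The share below 0 was 51.2% over all genes, and 10 of the 14 were at an unadjusted p below 0.05 in edgeR against 3.59%. Dlx3 was at -2.31 (SE 0.51), Msx2 at -2.61 (SE 0.62) and Lef1, the factor of the CTTTGA motif, at -3.13 (SE 0.73), with edgeR adjusted p values of 0.744, 0.833 and 0.833. The summed level of these 14 genes was 740 to 1884 CPM in WT and 655 to 786 CPM in NPYtet. NPYtet replicate 5, rich in hair keratins, had 786 CPM of these factors, and WT replicate 3, poor in hair keratins, had 740 CPM. The sum does not stand for each factor. Dlx3 was at 37.2 CPM or more in each library labelled male, NPYtet replicate 5 among them, and at 33.6 CPM or less in the poor libraries. For Msx2 these limits were 8.71 and 7.21 CPM. For Lef1 they were 3.44 and 3.55 CPM, so Lef1 did not divide the libraries in this way. All 9 genes of dividing cells were below 0 (median -0.93, with 5 at an unadjusted p below 0.05), with sums of 283 to 705 CPM in WT and 200 to 438 CPM in NPYtet. NPYtet replicate 5 had 275 CPM of them and NPYtet replicate 2 had 438 CPM.

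Plk1, a mitotic kinase, had the smallest p of them (-1.10, SE 0.34, edgeR unadjusted p = 0.00551).

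Keratins of the layers outside the shaft varied differently. Of 8 keratins of the outer root sheath and companion layer, 6 were below 0 by genotype (median -0.24), with 0 called by edgeR and 1 at an unadjusted p below 0.05, Krt75 of the companion layer (-1.36, SE 0.51). By labelled sex edgeR called 4 of these 8, against 0 of the 10 shaft keratins and 2.48% of all genes. Krt6a was at 715 CPM or more in each library labelled male and 4.66 higher there on the log2 scale (SE 0.68, adjusted p = 0.00536 in edgeR). The 5 keratins of the epidermis between follicles had a median genotype change of -0.12, with 0 called by edgeR and 0 at an unadjusted p below 0.05. Krt10, of the upper epidermal layers, was at 2137 to 5930 CPM in WT and 1697 to 7308 CPM in NPYtet, a narrow range beside that of the shaft keratins.

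Pigment genes, active in melanocytes that load the growing shaft, did not follow the keratins in each library. The 9 were all below 0 (median -3.35), with 6 at an unadjusted p below 0.05 against 3.59% of all genes. For 4 of them the genotypes did not overlap, against 0.305% of all genes. Pmel, whose product forms the fibrils of the melanosome, was at 7.70 to 78.5 CPM in WT and 2.78 to 5.92 CPM in NPYtet (-3.35, SE 0.57, edgeR adjusted p = 0.306). The summed pigment level was 9.30% and 8.02% of the summed CPM of hair shaft keratins in WT replicates 1 and 4, 4.52% in WT replicate 5, 7.01% in NPYtet replicate 2, 1.04% in WT replicate 2 and 0.801% in NPYtet replicate 5. Since the keratin sum is the divisor, the libraries with the highest keratin sums after TMM scaling, WT replicate 2 and NPYtet replicate 5, must tend to low ratios. The pigment sums themselves were 87.1 CPM in WT replicate 2 and 52.8 CPM in NPYtet replicate 5. They were 442 and 318 CPM in WT replicates 1 and 4, 67.4 CPM in WT replicate 5 and 29.2 CPM in NPYtet replicate 2. The sums run over all 9 genes, whose genotype changes ranged from -4.56 to -0.11. In NPYtet Pmel, Tyrp1 and Dct averaged 4.13, 1.54 and 5.96 CPM, beside sums of 29.2 to 61.9 CPM. The NPYtet sums thus came largely from other genes of the list.

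**Figure D4:**
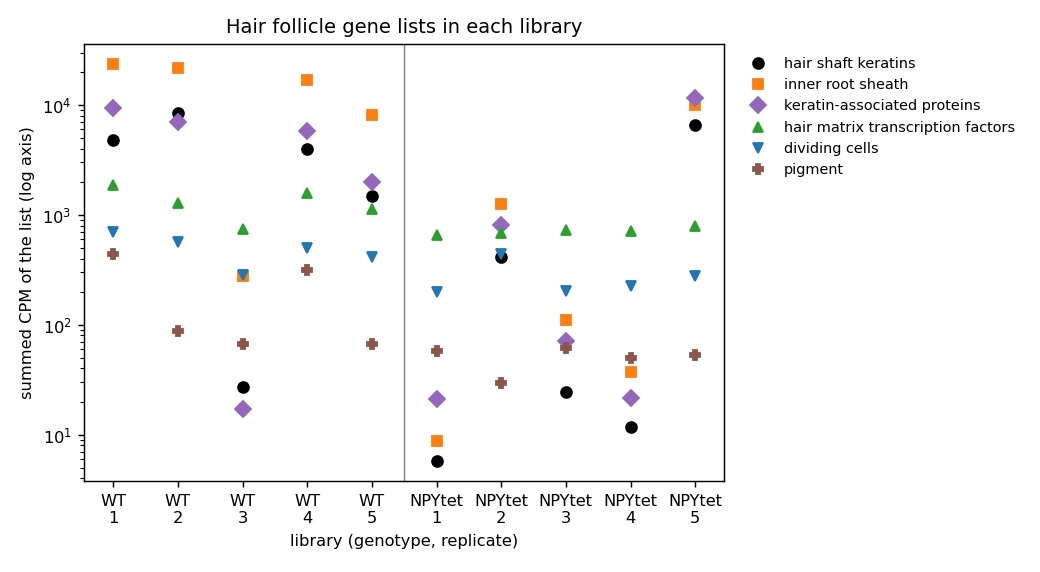
Summed CPM of 6 gene lists of the hair follicle in each library, on a log axis. NPYtet replicate 5 has high sums of shaft keratins (6599 CPM), inner root sheath and keratin-associated protein genes, and sums of matrix transcription factors (786 CPM), dividing cells (275 CPM) and pigment genes (52.8 CPM) within or near those of the poor libraries.

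The balance between shaft and sheath also differed among rich libraries. Shaft keratins summed to 0.182 to 0.387 times the inner root sheath genes in WT replicates 1, 2, 4 and 5 and NPYtet replicate 2, and to 0.665 times in NPYtet replicate 5. WT replicate 3 had the lowest ratio of all 10 libraries, 0.0969, with 280 CPM of sheath genes beside 27.2 CPM of shaft keratins. Keratin-associated proteins summed to 0.838 to 1.98 times the shaft keratins in the 6 rich libraries. These ratios are sums of CPM over different genes and describe the libraries only.

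Markers of other cell types also differed between libraries. The 5 basal keratinocyte markers (Krt5, Krt14, Itga6, Itgb4 and Trp63), all detected, summed to 5118 to 54767 CPM in WT and 6233 to 28993 CPM in NPYtet, with the highest sums in WT replicate 2, NPYtet replicate 5 and WT replicate 5, which are rich in hair keratins, and a sum of 5118 CPM in WT replicate 1, which is also rich. In NPYtet replicate 1, with the fewest keratin reads, the 6 fibroblast markers, all detected, summed to 73264 CPM, the highest of all libraries, but the next highest sum, 60364 CPM, was in WT replicate 5, which is rich in keratins, and the lowest, 10655 and 10851 CPM, were in NPYtet replicates 4 and 3, which are poor in them. The 5 adipocyte markers, all detected, summed to 697 to 2557 CPM in WT and 1207 to 4824 CPM in NPYtet, highest in NPYtet replicate 5. The part of skin composition in the keratin levels was not tested.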

How the data were processed

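Whole-skin poly(A) RNA of 10 mice was read in pairs of 75 bases. The deposited files hold whole-number read counts per gene and library, made by the authors. Per the submitters' processing notes, reads were aligned to mm10, and the tools named are STAR 2.5.2, Trimmomatic 0.36, FastQC 0.11.8, bcl2fastq and DESeq2 1.30.1. Annotation release and strand column: not given in the sources used here. Identifiers were matched to GENCODE M21 (49326 of 49671, and 0.0744% of reads fell on the rest).

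Genes were kept with filterByExpr (minimum count 10, minimum total 15), scaled by TMM and tested by edgeR 4.0.16 (R 4.3.3) with its robust quasi-likelihood test, with genotype and labelled sex as terms and Benjamini-Hochberg adjustment over 18060 genes at 0.05. The script was first tested on simulated counts. CPM per kb used the union of annotated exons, log2 CPM a prior count of 2, and rich libraries are those with a summed level above 100 CPM. The counts depend on how reads of similar copies were assigned. Alternatives were DESeq2 1.42.0, limma 3.58.1 voom with a quality weight for each library, other scalings, filters and terms, and leaving out libraries. Coding sequences, not proteins, were compared.

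The 10 genes and all lists were chosen with earlier results of these data known. All members and other hair keratins were named, up to 3 genes of each other list with the smallest p, and the 10 genes of at least 1 CPM most like the members. Further list genes are given as counts. Intervals are exact binomial and cover counting error only.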

Additional observations from a re-analysis of the deposited data

Results flagged for a closer look

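In the NPYtet group of 5 libraries, replicate 5 lay far above the other 4 for each of the 10 hair shaft keratins, with a gap to the next library above the 95% critical share of the group's range in Dixon's test. Its levels were 451 CPM for Krt31, 27.0 for Krt32, 507 for Krt33a, 773 for Krt33b, 597 for Krt34, 634 for Krt35, 104 for Krt36, 786 for Krt81, 1719 for Krt83 and 1003 CPM for Krt86. Of 20 groups of 5 so examined, 10 stood out, all in this library. The rate of about 1 in 20 groups marked by chance assumes normally distributed values. Dixon's test was made here on CPM, which are strongly skewed within the group, so that rate does not hold. On a log scale the gap is a smaller share of the range for each gene. The 10 genes also share the same libraries, so they amount to 1 event. The same library had the most mitochondrial and ribosomal RNA locus reads and the fewest genes with a read (19953). Whether its RNA quality has a part in its keratin levels was not tested.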

How the results depend on the processing

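Under 20 alternatives 189 of 200 fold changes of single keratins kept their direction and side of the threshold, and 10 passed it with no filter on low counts. Krt33b ranged from -5.97 to 0.22 when single libraries were left out, the 0.22 being without WT replicate 1. This count says little of stability, since all 10 began at an adjusted p of 0.999 in edgeR and size was not scored. Without WT replicate 1, Krt34 at -0.13, Krt83 at -0.07 and Krt86 at -0.04 were counted as kept. With all libraries they were at -4.26, -4.06 and -4.13. For genotype, edgeR called 1 gene in all, DESeq2 35, limma voom 2, edgeR with no filter 409 and edgeR without the 3 libraries that stand apart 0. Leaving out single libraries gave 1 to 8 genes (8 without WT replicate 3), 0 keratins each time, and a median keratin change of -6.03 to -0.40. With no filter 10 keratins were called by genotype (1.24% of all genes). Their fold changes hardly moved there, while their standard errors were 0.36 to 0.62, against 0.79 to 3.19 with the filter. By labelled sex DESeq2 called 8 keratins (12.8% of all genes), limma voom 9 (32.6%) and edgeR with no filter 10 (7.24%). Leaving out single libraries gave 0 to 10 by labelled sex (10 without WT replicate 1, with 3.65% of all genes). For genotype by sex, no filter gave 8 keratins (217 of 32857 genes). Leaving out single libraries gave 0 to 6 there (6 without WT replicate 3, with 0.59% of all genes). The cause was not tested. With a replicate block the median keratin change was -2.01 with the sex term kept and -4.20 in its place, with 0 keratins and 1 gene called in both. Deviations of same-numbered libraries correlated at -0.256 to 0.644, and none correlated best with its own number. These correlations show no pairing of the mice by number, but they cannot exclude one. With 5 mice a genotype, unequal sexes and 1 library whose label its sex-linked reads contradict, genotype, sex and single mice are poorly separated for the hair keratins.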
